A study of Mus musculus with 8 samples.

Results

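A set of 10 genes of prostaglandin E2 (PGE2) synthesis, breakdown and sensing was examined in PyMt mammary tumors treated topically with calcipotriol, an analog of vitamin D, or with EtOH, its solvent. They were chosen by name, as the rows of the deposited table whose Ensembl identifier carries the symbols Ptgs1, Ptgs2, Ptges, Ptges2, Ptges3, Hpgd, Ptger1, Ptger2, Ptger3 and Ptger4. All 10 were found among the 55414 genes of the table, and all 10 had enough counts to be tested, together with 14458 genes in all. The tumors were grown from the PyMt cell line, established from a tumor that arose in a C57BL/6 MMTV-PyMt mouse, in which the MMTV promoter drives the polyoma middle T oncogene in mammary epithelium. Cells of this line were implanted orthotopically, into a mammary fat pad, in WT female C57BL/6 mice aged 6 to 8 weeks. Calcipotriol at 20 nmol, dissolved in ethanol, or EtOH alone was applied over the tumor every 2 days from 2 days after implantation, and tumors were taken 24 hours after the last application. There were 4 EtOH-treated tumors (replicates 1, 2, 3 and 4) and 4 calcipotriol-treated tumors (replicates 1, 5, 6 and 7), with 1 RNA-Seq library each. All came from 1 transplanted line, so the tumors do not represent independent oncogenic events.

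Prostaglandins are short-range lipid signals made from arachidonic acid. The cyclooxygenases COX-1 (Ptgs1, mostly constitutive) and COX-2 (Ptgs2, induced by growth factors, cytokines and oncogenes) convert arachidonic acid to PGH2, and PGE synthases turn PGH2 into PGE2. PGE2 acts on the receptors EP1 to EP4 on tumor, stromal and immune cells, and it is inactivated inside cells by 15-hydroxyprostaglandin dehydrogenase, the product of Hpgd. In mammary tumors, COX-2 and PGE2 are known for promoting angiogenesis and restraining antitumor immunity. Vitamin D receptor agonists are known to repress COX-2 and to raise Hpgd in cultured cancer cells, so the comparison asks how these genes stood in whole tumors after topical treatment.

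The sequences just before the start sites of the gene that rose (Ptges), of the inducible cyclooxygenase (Ptgs2) and of the constitutive cyclooxygenase (Ptgs1) are shown from RefSeq (GRCm38.p6), 250 bases before the start site and 50 from it on, in the direction of the gene. Capitals mark letters that match any of the motifs searched. The RefSeq start of Ptges lies inside its longer GENCODE gene model.
Ptges promoter, chr2:30903248-30903547, reverse strand: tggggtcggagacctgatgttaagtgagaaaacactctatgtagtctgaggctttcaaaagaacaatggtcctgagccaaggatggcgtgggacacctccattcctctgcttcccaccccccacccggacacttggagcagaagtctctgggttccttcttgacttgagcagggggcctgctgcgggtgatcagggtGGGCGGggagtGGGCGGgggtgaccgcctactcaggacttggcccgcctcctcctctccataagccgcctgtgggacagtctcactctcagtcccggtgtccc
Ptgs2 promoter, chr1:150099781-150100080, forward strand: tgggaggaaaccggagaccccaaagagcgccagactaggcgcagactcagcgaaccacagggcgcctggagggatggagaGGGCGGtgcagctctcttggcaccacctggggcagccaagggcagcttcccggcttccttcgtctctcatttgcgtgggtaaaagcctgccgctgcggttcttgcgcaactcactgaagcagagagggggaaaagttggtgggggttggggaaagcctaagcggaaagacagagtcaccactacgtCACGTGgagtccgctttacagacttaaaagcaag
Ptgs1 promoter, chr2:36230176-36230475, forward strand: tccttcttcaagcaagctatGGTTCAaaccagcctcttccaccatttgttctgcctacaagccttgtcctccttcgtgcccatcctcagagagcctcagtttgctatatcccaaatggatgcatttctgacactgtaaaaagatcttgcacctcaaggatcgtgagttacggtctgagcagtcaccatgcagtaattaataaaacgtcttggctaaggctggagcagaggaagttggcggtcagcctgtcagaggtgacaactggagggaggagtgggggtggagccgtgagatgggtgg

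Both strands were searched for the vitamin D receptor half-site (spelled AGGTCA in its usual form, with AGTTCA as one variant, GGGTCA as another variant and GGTTCA as the last variant searched), for pairs of these in the same direction with 3 bases between them, and for CRE (TGACGTCA), AP-1 (TGANTCA), E-box (CACGTG), Sp1 (GGGCGG), the TATA box (TATAAA) and kappaB letters (GGGA followed by any 2 bases and then by TTCC). Positions are counted from 0 at the start site. The Ptges window held 2 Sp1 matches, from -53 to -48 and from -42 to -37, and no vitamin D receptor half-site. The Ptgs2 window held 1 Sp1 match, from -170 to -165, and 1 E-box match, from 16 to 21, the latter after the start site that RefSeq gives. The Ptgs1 window held 1 half-site, from -230 to -225. Of all 32851 promoters of this length, 35.7% held the Sp1 letters, 7.15% the E-box and 43.7% a half-site, and 0.0396% held a half-site pair. No pair was found in the windows of the 9 members present in the RefSeq table, where Ptger1 is missing. These matches describe letters in a short window, and no binding was measured.

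Library totals ranged from 19685419 to 25084713 counts, and 3 counts correspond to about 0.135 CPM (the usual library-scaled count, here with library sizes adjusted by TMM, which takes most genes as not differing). Calcipotriol replicate 1 stood apart from the other calcipotriol-treated tumors in macrophage genes, with a summed level of 8 macrophage markers of 1885 CPM against 1074 to 1245 CPM, so results are also given without it. Among the EtOH-treated tumors, replicates 1 and 2 lay apart from replicates 3 and 4 on the second principal component of log2 CPM (22.1% of the variance). The labels call the samples epithelial. Krt8 and Krt18, keratins of simple epithelium, were at 593 ± 67.4 and 558 ± 90.4 CPM (SD, n = 4) with EtOH, whereas Epcam, an epithelial adhesion protein, had 0, 0, 106 and 65 counts in the EtOH group and 38, 26, 398 and 536 in the calcipotriol group. In whole tumors, fewer cells of a type and less RNA per cell cannot be told apart.

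Calcipotriol-treated tumors had about 2.41-fold more Ptges, the inducible microsomal PGE synthase, than EtOH-treated tumors, and no member of the pathway was lower past the thresholds. Ptgs2 was abundant with either treatment, at 324 ± 80.1 and 523 ± 149 CPM (SD, n = 4), a difference that did not pass the test. Ptgs1 had a log2 fold change with a narrow interval around 0, and Hpgd had few counts, from 1 to 21 in a tumor. A gene was called if it passed edgeR's quasi-likelihood test (Benjamini-Hochberg adjusted p under 0.05 over all genes tested) and changed by 1 or more on the log2 scale. Of the 10 members, 1 was higher and 0 were lower, against 1.07% higher and 0.948% lower (2.02% in all) among the 14458 genes tested. The adjusted p alone also passed 1 member, where 2.74% of all genes (1.37% higher) passed. At an unadjusted p under 0.05 there were 2 members, Ptges and Ptgs2, where 18.4% of all genes tested passed. The log2 fold change was above 0 for 7 members and below 0 for 3, with a median of 0.51, beside a median of 0.02 over all genes tested.

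**Figure D1:**
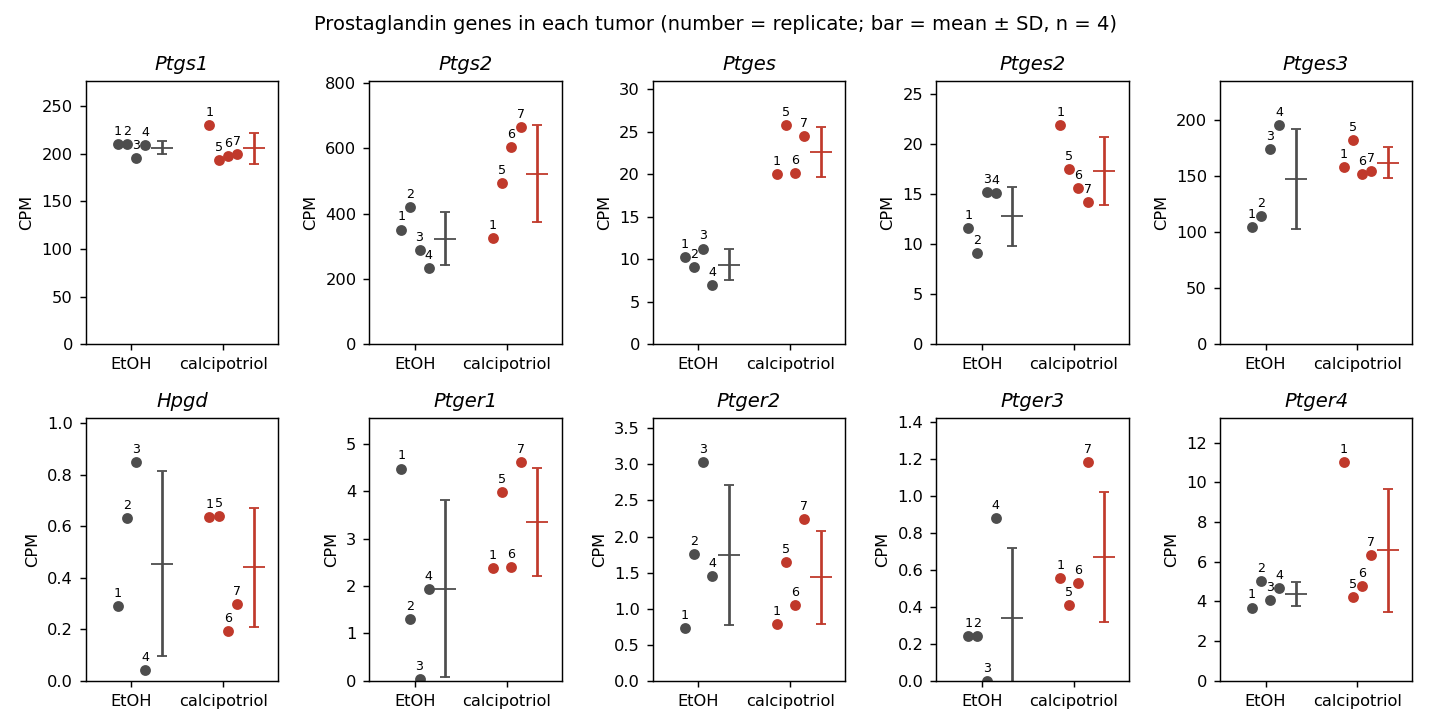
CPM of each gene (y axes start at 0 and differ between panels) in the 4 EtOH-treated tumors (gray) and the 4 calcipotriol-treated tumors (red), where numbers are replicates and bars give the mean ± SD, cut off at 0 where they reach below it. Ptges is the only panel in which the groups do not overlap, with 6.97 to 11.3 CPM against 20.02 to 25.8 CPM.

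Ptges (ENSMUSG00000050737; chromosome 2, 30889471 to 30929863, reverse strand, GRCm38 with GENCODE M21) encodes the enzyme that works with COX-2 in stimulated cells. Its level was 10.2, 9.05, 11.3 and 6.97 CPM in the EtOH-treated tumors and 20.02, 25.8, 20.2 and 24.5 CPM in the calcipotriol-treated tumors. The lowest calcipotriol-treated tumor was above the highest EtOH-treated tumor, and calcipotriol replicate 1 was on the side of its group. Such a complete separation was seen upward in 6.32% and downward in 6.16% of all genes tested (12.5% in all). The means were 9.37 ± 1.84 CPM (SD, n = 4) and 22.6 ± 2.97 CPM (SD, n = 4). The log2 fold change stood at 1.27 ± 0.19 (SE), with adjusted p = 0.0107 by edgeR and a 95% interval of 0.84 to 1.70. Without calcipotriol replicate 1 it was 1.33 (edgeR, adjusted p = 0.00568). Limma-voom, which follows the package named in the study's methods, gave 1.28 (adjusted p = 0.012).

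Among the markers of other cell types, several summed levels also differed between the groups without overlap. The 8 macrophage markers summed to 2099 to 2584 CPM with EtOH and 1074 to 1885 CPM with calcipotriol, the 6 endothelial markers to 110.1 to 277 CPM and 42.3 to 94.9 CPM, and the 6 epithelial markers to 1012 to 1322 CPM and 593 to 891 CPM. The 5 adipocyte markers summed to 28.4 to 34.8 CPM and 12.8 to 20.6 CPM, nearly all of it Fabp4, a fatty acid binding protein that endothelial cells and macrophages also express, while Adipoq, Plin1, Lep and Cidec were near 0 and overlapped. Within the macrophage list, 7 of 8 genes had log2 fold changes below 0 and 2 were called lower (Csf1r and Adgre1), whereas Cd163, a scavenger receptor, was called higher, with a log2 fold change of 1.87 (edgeR, adjusted p = 0.0192). The marker genes named here were picked after their values were seen. No gene of these 4 lists was at 0 in all tumors. The epithelial sum followed Krt8 and Krt18, while 4 of its 6 genes had log2 fold changes above 0. All 4 sums were lower with calcipotriol, with these exceptions among their genes. By staining for a pan-macrophage marker, however, the paper reports significantly more macrophages in calcipotriol-treated tumors, the opposite direction to the macrophage sum. The stained groups were mice that also received control IgG, which is not stated for the sequenced tumors. The sum gives the RNA of its genes and not a number of macrophages, and the reason for the difference was not tested. The 7 neutrophil markers (31.4 to 106.6 CPM with EtOH, 40.4 to 154 CPM with calcipotriol) and the 6 fibroblast markers (1221 to 2467 CPM and 1764 to 3438 CPM) overlapped between the groups. Of the fibroblast genes, 5 had log2 fold changes above 0 and 1 below, with Dcn at 1.23 (edgeR, adjusted p = 0.136). Krt14, of the keratinocyte list given further below, was called higher. The part of any of these markers in the Ptges result was not tested.

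The other PGE synthases did not pass the test. Ptges2 (chromosome 2, 32395896 to 32405772, forward strand), a membrane-associated PGE synthase, was at 11.6, 9.15, 15.2 and 15.1 CPM with EtOH and at 21.9, 17.5, 15.6 and 14.2 CPM with calcipotriol. The groups overlapped, and the highest value was that of calcipotriol replicate 1. For Ptges2, the log2 fold change stood at 0.44 ± 0.22 (SE), with adjusted p = 0.319 by edgeR, and without calcipotriol replicate 1 it was 0.30 (adjusted p = 0.476). Ptges3 (chromosome 10, 128058954 to 128077272, forward strand) encodes p23, a cochaperone of HSP90 that also has PGE synthase activity. It was at 104.6, 114, 174 and 196 CPM with EtOH and at 158, 182, 152 and 155 CPM with calcipotriol. EtOH replicates 1 and 2 were the lowest of the 8 tumors and replicate 4 the highest, so the spread lay in the EtOH group. Its log2 fold change was 0.14, with a 95% interval of -0.30 to 0.58 (edgeR, adjusted p = 0.771), and it was 0.15 without calcipotriol replicate 1. A processed pseudogene, Ptges3-ps, had at most 30 counts in a tumor, and reads shared with such copies can be divided between them by RSEM.

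The cyclooxygenases were both abundant. Ptgs2 (ENSMUSG00000032487; chromosome 1, 150100031 to 150108227, forward strand) was at 351, 419.8, 289 and 234 CPM in the EtOH-treated tumors and at 326, 494, 606 and 665 CPM in the calcipotriol-treated tumors. Calcipotriol replicates 5, 6 and 7 were above every EtOH-treated tumor, whereas replicate 1 lay between EtOH replicates 1 and 3. The means were 324 ± 80.1 and 523 ± 149 CPM (SD, n = 4). The log2 fold change was 0.69 (standard error 0.24, 95% interval 0.16 to 1.23), a 1.62-fold difference that did not pass (edgeR, adjusted p = 0.158). Without calcipotriol replicate 1 the log2 fold change was 0.86 with an adjusted p of 0.0347 from the same test. That was the only 1 of the 8 fits with 1 tumor left out with an adjusted p under 0.05 (edgeR, 0.0347 to 0.345). On all 8 tumors, DESeq2 gave 0.70 with an adjusted p of 0.0482, and limma-voom gave 0.68 with an adjusted p of 0.152. The fold change stayed under the threshold in each of these fits, so Ptgs2 was not called. Calcipotriol replicate 1, the lowest of its group for Ptgs2, was the highest of its group for the macrophage marker sum, and the part of this in the Ptgs2 result was not tested.

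Ptgs1 (ENSMUSG00000047250; chromosome 2, 36230426 to 36252272, forward strand) was at 209.6, 210.2, 196 and 209 CPM with EtOH and at 230.2, 194, 198 and 200.01 CPM with calcipotriol. The values overlapped, and the highest was again calcipotriol replicate 1. The log2 fold change was -0.0056 (edgeR, adjusted p = 0.985) and -0.06 without that tumor. Its 95% interval, -0.25 to 0.24, was the narrowest of the 10 members. A difference of the size seen for Ptges lay outside this interval.

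Within a tumor, the ratio of Ptgs2 to Ptgs1 counts does not depend on scaling between libraries. The log2 ratio (with 0.5 added to each count) was 0.75, 0.998, 0.56 and 0.16 in the EtOH-treated tumors and 0.50, 1.35, 1.61 and 1.73 in the calcipotriol-treated tumors. The groups overlapped through calcipotriol replicate 1. The mean was 0.62 ± 0.35 (SD, n = 4) with EtOH and 1.3003 ± 0.56 (SD, n = 4) with calcipotriol, a difference of 0.68 (two-sided exact permutation test, p = 0.114, adjusted p = 0.343 for the 3 ratios compared). Without calcipotriol replicate 1 the groups did not overlap, and the difference was 0.95 (adjusted p = 0.0857 from the exact permutation test). With 3 tumors against 4, this is the smallest adjusted p that a single separated ratio of the 3 can reach. It could therefore not have fallen under 0.05.

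The ratios of synthesis to breakdown did not differ past the spread. The log2 ratio of Ptgs2 to Hpgd was 9.90 ± 1.45 with EtOH and 10.25 ± 1.19 with calcipotriol (SD, n = 4), a difference of 0.35 (p = 0.714 from the two-sided exact permutation test). The log2 ratio of Ptges to Hpgd was 4.81 ± 1.41 with EtOH and 5.76 ± 0.77 with calcipotriol (SD, n = 4), a difference of 0.95 (p = 0.343 from the same exact test, adjusted p = 0.514). With 4 tumors against 4, the smallest p this test can give is 0.0286. Both ratios rest on few Hpgd counts.

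Hpgd (ENSMUSG00000031613; chromosome 8, 56294585 to 56321043, forward strand) had 6, 13, 21 and 1 counts in the EtOH-treated tumors and 16, 14, 4 and 7 counts in the calcipotriol-treated tumors. The lowest and the highest of the 8 counts were both in the EtOH group. This is 0.455 ± 0.358 CPM and 0.441 ± 0.231 CPM (SD, n = 4). The log2 fold change was -0.04 ± 0.89 (SE), with adjusted p = 0.985 by edgeR. Its 95% interval of -2.01 to 1.92 spans falls and rises of well over the called threshold, so neither could be told from no difference. The log2 fold change was -0.27 without calcipotriol replicate 1, and limma-voom turned the sign, with 0.34.

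**Figure D2:**
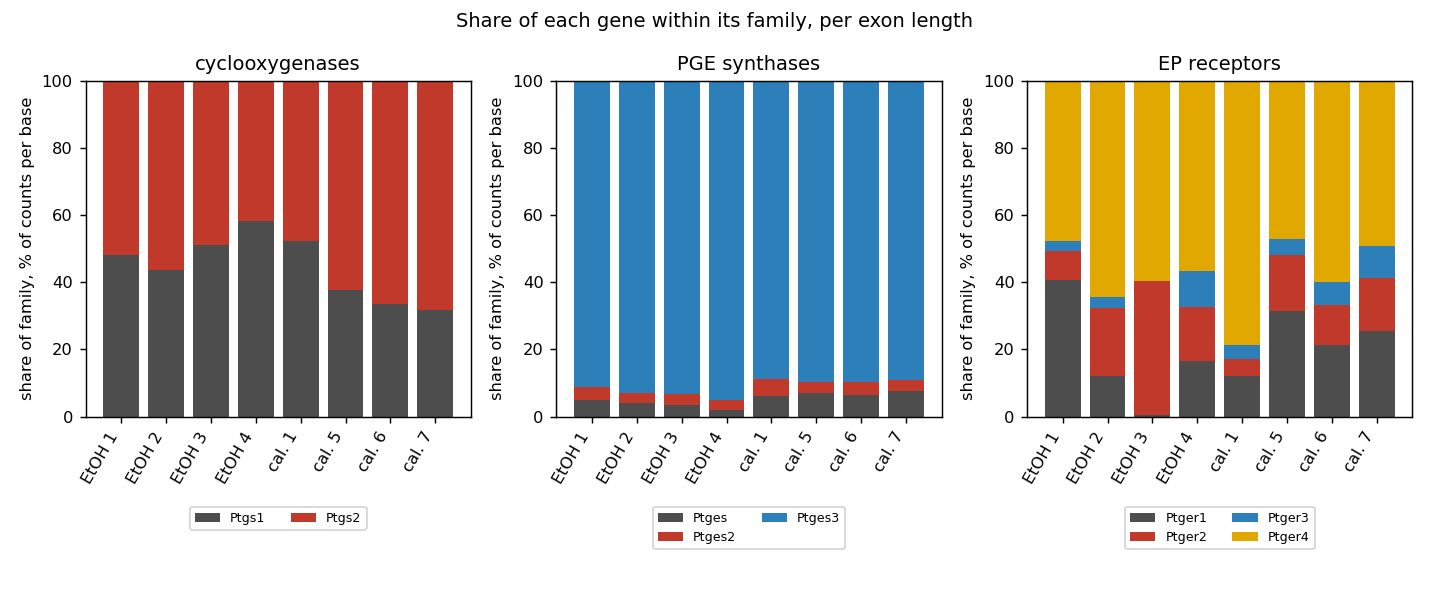
Share of each gene within the cyclooxygenases, PGE synthases and EP receptors in every tumor (bars sum to 100%), from counts divided by exon length. The Ptges share of the PGE synthases is 1.86% to 4.88% with EtOH and 6.17% to 7.74% with calcipotriol, and Ptger4 holds the largest share of the EP receptors in all 8 tumors.

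Levels can be compared between genes only per length, here as CPM per kilobase of annotated exon. In EtOH-treated tumors Ptges3 was at 73.6 ± 22.3, Ptgs2 at 72.6 ± 18.0 and Ptgs1 at 71.9 ± 2.46 CPM per kilobase (SD, n = 4), which do not differ beyond their spread. All 3 belonged to the more abundant transcripts, with 94.3%, 95.3% and 93.7% of all genes tested below them in level over the 8 tumors. Ptges at 2.57 ± 0.50 and Ptges2 at 2.57 ± 0.59 CPM per kilobase (SD, n = 4) came next and did not differ either. In calcipotriol-treated tumors Ptgs2 was at 117 ± 33.5, Ptges3 at 80.9 ± 6.86 and Ptgs1 at 71.7 ± 5.82 CPM per kilobase (SD, n = 4). This order did not hold in calcipotriol replicate 1, where Ptgs2 made up 47.7% of the cyclooxygenases and Ptgs1 52.3%. Ptges, at 6.21 ± 0.82, was above Ptges2, at 3.48 ± 0.68. Of the 3 PGE synthases, Ptges thus made up 3.52% ± 1.28 of the level per length with EtOH and 6.85% ± 0.68 with calcipotriol (SD, n = 4), while Ptges3 made up 93.2% ± 1.69 and 89.3% ± 0.43. Neither share overlapped between the groups. Shares within a family depend on each other, so these are not separate results, and the CPM of Ptges3 itself overlapped.

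The EP receptors were all at low levels. Ptger4 (chromosome 15, 5206661 to 5244187, reverse strand), which encodes EP4, a receptor that raises cAMP and is widespread on immune cells, was the most abundant of them, at 1.31 ± 0.18 CPM per kilobase with EtOH and 1.98 ± 0.93 with calcipotriol (SD, n = 4). Its CPM was 3.70, 5.01, 4.09 and 4.68 in the EtOH-treated tumors and 11.04, 4.20, 4.76 and 6.32 in the calcipotriol-treated tumors. The difference came mainly from calcipotriol replicate 1, the only tumor above 10 CPM, and the groups overlapped. Ptger4 had a log2 fold change of 0.59 ± 0.34 (SE), with adjusted p = 0.391 by edgeR, and of 0.22 without that tumor (adjusted p = 0.727). The same tumor had the highest T cell marker sum, 11.2 CPM over 6 genes against 1.19 to 3.15 CPM in the other 7 tumors, and its part in the Ptger4 value was not tested.

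Ptger2 (chromosome 14, 44988195 to 45003820, forward strand) encodes EP2, the other cAMP-raising receptor. In the EtOH group its counts were 15, 36, 75 and 33, and in the calcipotriol group 20, 36, 22 and 53, which overlap (log2 fold change -0.28, 95% interval -1.57 to 1.003, edgeR adjusted p = 0.842). Without EtOH replicate 3, the highest count, the sign turned, with a log2 fold change of 0.13, and without calcipotriol replicate 1 the value was -0.08.

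Ptger3 (chromosome 3, 157566892 to 157645888, forward strand) encodes EP3, which lowers cAMP. Averaged over the 8 tumors it had the lowest level per exon length of the 10 members, next to Hpgd, with overlapping spreads, whereas on the CPM scale in calcipotriol-treated tumors Hpgd was lower. Its counts were 5, 5, 0 and 20 in the EtOH group and 14, 9, 11 and 28 in the calcipotriol group. The calcipotriol counts were above 3 of the 4 EtOH counts, and the groups overlapped through EtOH replicate 4. Between the groups, the log2 fold change stood at 0.96 ± 1.01 (SE), with adjusted p = 0.666 by edgeR, and at 1.04 without calcipotriol replicate 1.

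Ptger1 (chromosome 8, 83666678 to 83672753, forward strand) encodes EP1, which acts through calcium. EtOH-treated tumors had 92, 27, 1 and 44 counts, and calcipotriol-treated tumors 60, 87, 50 and 109. The EtOH counts ran from 1 to 92 and enclosed 3 of the calcipotriol counts. With all 8 tumors, the log2 fold change stood at 0.79 ± 0.83 (SE), with adjusted p = 0.668 by edgeR, at 0.92 without calcipotriol replicate 1 and at 1.95 with limma-voom (adjusted p = 0.291).

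Per length, Ptger4 made up 57.0% ± 7.13 of the 4 EP receptors with EtOH and 58.7% ± 14.5 with calcipotriol (SD, n = 4). Ptger2 made up 21.2% ± 13.5 and 12.4% ± 5.25, Ptger1 17.5% ± 17.0 and 22.6% ± 8.19, and Ptger3 4.35% ± 4.66 and 6.28% ± 2.44. Every share overlapped between the groups, and Ptger4 had the largest share in each of the 8 tumors. No source used here states that strand was used in counting, so reads in the 82 exonic bases that Ptger4 shares with Ttc33, and in the 246 that Ptger2 shares with Gm17173, both on opposite strands, may not be told apart.

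The rest of the prostanoid pathway was read from 4 lists with 37 genes found in the table, of which 24 were tested. None passed both thresholds in edgeR's quasi-likelihood test, where 2.02% of all genes did, while 7 of the 24 had an unadjusted p under 0.05, beside 18.4% of all genes, and 13 had log2 fold changes above 0 and 11 below (median 0.05, beside 0.02 over all genes). DESeq2 called 2 of them, edgeR without the filter on low counts also 2, and limma-voom 1. Those named below are the ones with the smallest p in each list.

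**Figure D3:**
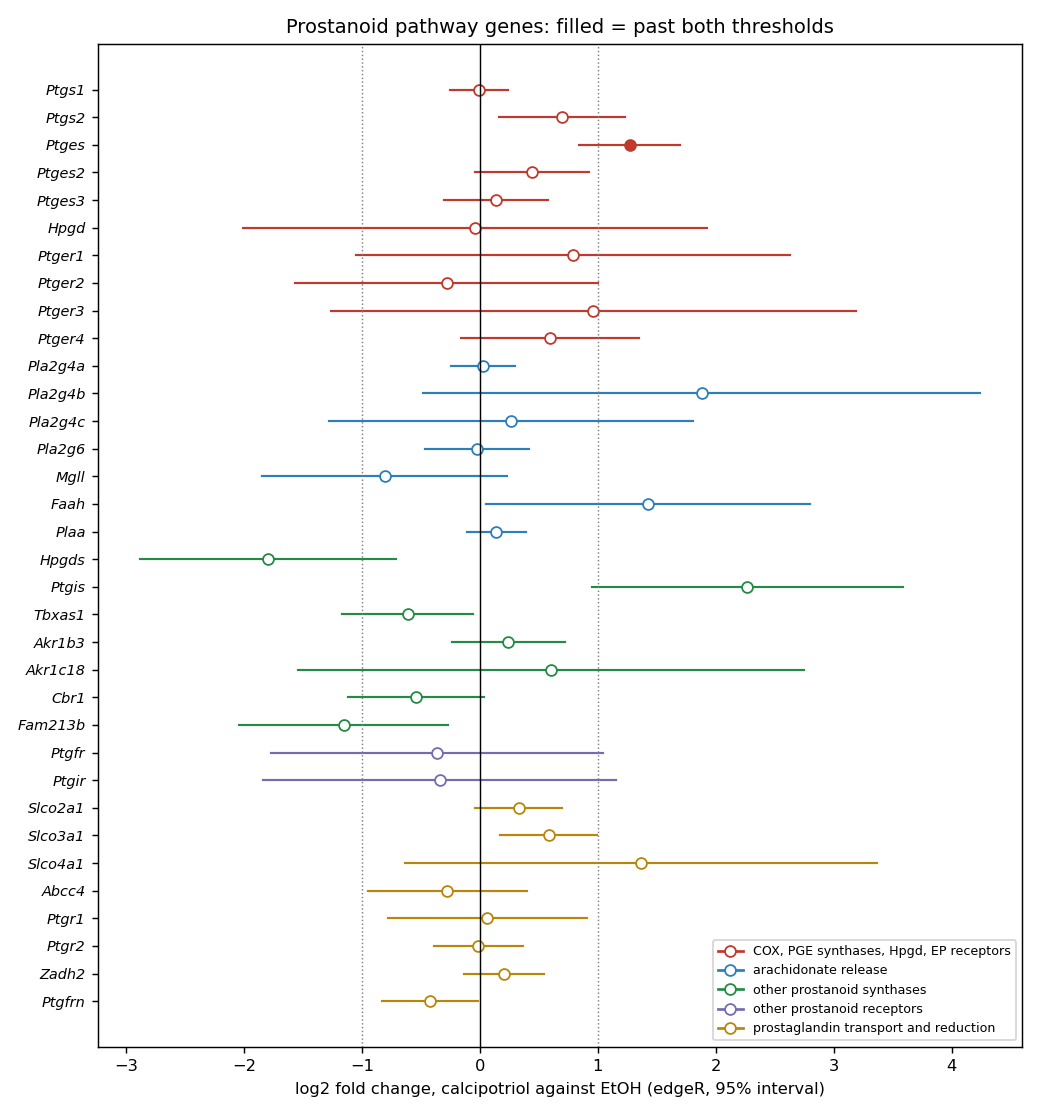
Log2 fold change of calcipotriol against EtOH (x axis) with its 95% interval for the 10 members (red) and the 24 tested genes of the other prostanoid lists, where dotted lines mark a log2 fold change of 1 in either direction. Ptges is the only filled point, past both thresholds, while Ptgis (2.27) and Hpgds (-1.80) lie farther from 0 with wider intervals.

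Among the other prostanoid synthases, Ptgis and Hpgds lay in opposite directions with no overlap between the groups. Fam213b, added after its values were seen, did not overlap either, with a log2 fold change of -1.16 (edgeR, adjusted p = 0.157). Such separation in either direction was seen in 12.5% of all genes tested. Ptgis, the prostacyclin synthase of vessel walls and fibroblasts, had 18, 6, 65 and 64 counts in the EtOH group and 255, 104, 174 and 210 in the calcipotriol group. The lowest calcipotriol count exceeded the highest EtOH count. Its log2 fold change stood at 2.27 ± 0.59 (SE), with adjusted p = 0.073 by edgeR. DESeq2 gave an adjusted p of 0.00274 and limma-voom of 0.059. The fibroblast marker sum overlapped between the groups and the endothelial sum was lower with calcipotriol, and their part in the Ptgis values was not tested. Hpgds, the hematopoietic PGD2 synthase of mast cells, macrophages and Th2 cells, had 215, 322, 267 and 215 counts in the EtOH group and 179, 27, 36 and 76 in the calcipotriol group. Calcipotriol replicate 1 lay close to the EtOH-treated tumors, and the other 3 were far below them. Its log2 fold change stood at -1.80 ± 0.49 (SE), with adjusted p = 0.0822 by edgeR, with -2.49 (adjusted p = 0.0053) without calcipotriol replicate 1 and an adjusted p of 0.0405 from limma-voom. The macrophage marker sum was lower with calcipotriol in the same way and highest there in replicate 1, whereas the 7 mast cell markers (19.3 to 56.0 CPM with EtOH, 18.6 to 52.4 CPM with calcipotriol) overlapped. The part of either in the Hpgds result was not tested.

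Of the 7 tested genes that release arachidonic acid or act on related lipids, Faah, a hydrolase of fatty acid amides, had the smallest p, with a log2 fold change of 1.43 (edgeR, adjusted p = 0.254), followed by Pla2g4b with 1.88 (adjusted p = 0.381). Pla2g4a, the cytosolic phospholipase that supplies cyclooxygenases, is added after its values were seen. It was at 77.1 ± 9.36 CPM with EtOH and 78.6 ± 5.35 CPM with calcipotriol (SD, n = 4). Of the 5 other prostanoid receptors, 2 were tested. Ptgfr, the PGF receptor, had a log2 fold change of -0.37 and Ptgir, the prostacyclin receptor, of -0.34 (edgeR adjusted p = 0.81 and 0.836).

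The list of transport and reduction had 8 tested genes. Slco3a1, an organic anion transporter that carries prostaglandins, did not overlap between the groups, by a narrow margin, at 21.8 ± 4.74 CPM with EtOH and 32.7 ± 5.31 CPM with calcipotriol (SD, n = 4), with a log2 fold change of 0.58 (edgeR, adjusted p = 0.131). Ptgfrn, a partner of the PGF receptor, had a log2 fold change of -0.42 (adjusted p = 0.255). Slco2a1, the prostaglandin transporter that takes PGE2 up for breakdown, was named after its level was seen. It was at 713 ± 127 CPM with EtOH and 896 ± 126 CPM with calcipotriol (SD, n = 4), with a log2 fold change of 0.33 (edgeR, adjusted p = 0.322).

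**Figure D4:**
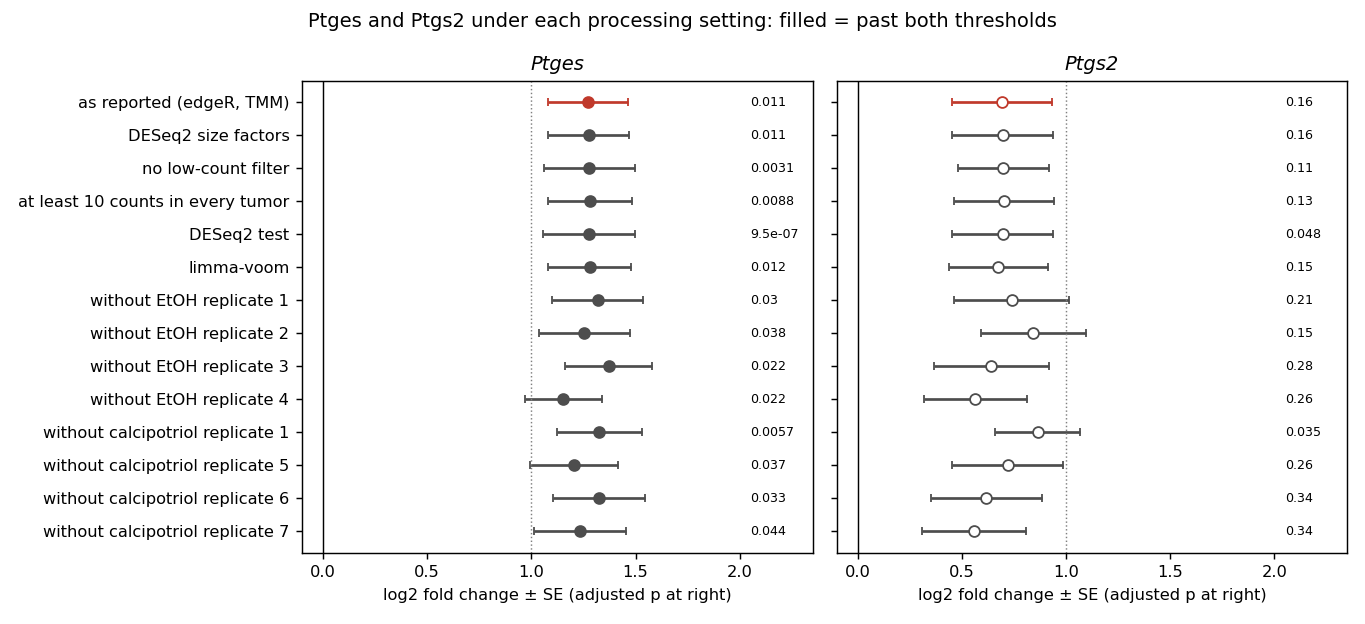
Log2 fold change of Ptges (left) and Ptgs2 (right) with its standard error, and the adjusted p at the right of each row, as reported (red) and under each other processing setting (gray). Ptges is past both thresholds in every row, from 1.15 to 1.37 with 1 tumor left out, and Ptgs2 in none, from 0.56 to 0.86.

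The profiles most like Ptgs2 over the 8 tumors, by the root mean square difference of log2 CPM after centering each gene on its own mean, were those of Xist (0.13), Ptbp2 (0.15) and Trim2 (0.15), where the median over the 11941 genes compared was 0.57. None of these 3 passed the test. For Hpgd the nearest were Gm10221, Adnp and 2010001A14Rik, at 0.46 to 0.47 beside a median of 0.93, so no gene followed its few counts closely.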

How the data were processed

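RNA-Seq of 4 EtOH-treated and 4 calcipotriol-treated tumors was used. The authors deposited expected counts (estimated reads per gene, not scaled between tumors), with 0 columns of other samples. The submitters' processing notes name STAR 2.5.3, RSEM 1.3.1, DESeq2 1.24.0 and GRCm38, without roles, and the annotation is not given in the sources used here. Of the 55414 identifiers, 52081 matched GENCODE M21 (GRCm38), which gave symbols, positions and union exon lengths. The library kit is not stated to be stranded.

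Counts were rounded and fitted in R 4.3.3 with edgeR 4.0.16 (filterByExpr, TMM, glmQLFit, glmQLFTest) over all genes. The study's thresholds were kept (adjusted p below 0.05, log2 fold change of 1 or more in size). Limma 3.58.1 (voom), DESeq2 1.42.0, other scalings and filters, and each tumor left out in turn were alternatives. Standard errors were the log2 fold change over the root of the test's F, and intervals cover 95%. Floors of 3 counts cover counting error only, because PCR copies of a molecule are counted as separate reads. Ratios were compared with exact permutation tests over the 70 arrangements of the tumors.

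On simulated counts with 200 genes altered by 2 on the log2 scale, edgeR recovered 197 with 11 false calls among 14614 genes. The altered genes were drawn only from those above a minimum mean count, and every gene had the same dispersion. Genes with as few counts as Hpgd and Ptger3 were not among those altered, and smaller differences were not simulated. The recovery therefore does not apply to them. Members, lists and tests were chosen with earlier results of these data known. Named genes are all members, genes of the other prostanoid and lipoxygenase lists past both thresholds, and up to 2 others per list with the smallest p. Not every marker that was called is named. Cell-type markers were summed from 10 fixed lists. The platelet (16.4 to 59.5 CPM with EtOH, 24.9 to 46.6 with calcipotriol) and keratinocyte sums (11.8 to 14.9 and 5.72 to 63.6) overlapped between the groups. Each of these lists had 1 of 6 genes at 0 in all tumors. Within the keratinocyte list, Krt14 was called higher, with a log2 fold change of 5.17 (edgeR, adjusted p = 0.0336). Krt14 had 12, 0, 37 and 15 counts with EtOH and 40, 223, 963 and 1023 with calcipotriol. Of the 4 genes tested in that list, 2 had log2 fold changes above 0 and 2 below. Promoters came from RefSeq (GRCm38.p6). One result on overlapping genes is not reported here.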

Additional observations from a re-analysis of the deposited data

Results flagged for a closer look

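The log2 CPM of Ptgs1 in EtOH replicate 3 was 7.61, against 7.71 to 7.72 in the other EtOH-treated tumors. It stood out by Dixon's test because those 3 lie close together. This was 1 of 26 groups of 4 tumors examined over the members and their ratios, and chance gives about 1 in 20.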

How the results depend on the processing

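One member, Ptges, passed both thresholds under every alternative tried and with each tumor left out. The 292 genes called over the whole table became 458 without the filter on low counts and 644 with DESeq2, and ranged from 110 to 642 with 1 tumor left out. Leaving out calcipotriol replicate 1 gave 642, and leaving out calcipotriol replicates 5, 6 or 7 gave 123, 110 and 116. Leaving out EtOH replicates 1, 2 or 3 gave 137, 117 and 175. Of the other prostanoid genes 0 were called, but 2 without the filter (Hpgds and Ptgis), 2 with DESeq2 (the same genes), 1 with limma-voom (Hpgds) and 0 to 1 with a tumor left out, the 1 being Hpgds without calcipotriol replicate 1. Signs turned only in members that were not called. Ptgs1 had a log2 fold change of 0.0016 without the filter and 0.0038 with at least 10 counts in every tumor, and ranged from -0.064 to 0.023 with 1 tumor left out. Hpgd was at 0.34 with limma-voom and ranged from -0.42 to 0.45, turning without EtOH replicate 2 or 3 or calcipotriol replicate 6 or 7. Ptger2 ranged from -0.58 to 0.13. The difference in the log2 ratio of Ptgs2 to Hpgd ranged from -0.16 to 0.98 and turned without EtOH replicate 3 or calcipotriol replicate 6. The other ratios kept their direction, from 0.53 to 0.95 for Ptgs2 to Ptgs1 and from 0.58 to 1.59 for Ptges to Hpgd. The cause was not tested. No paired analysis was made because neither the labels nor the paper describes pairs of tumors, and a shared replicate number does not mark a pair. Depth limits Hpgd and Ptger3, which had at most 28 counts in any tumor. Ptger1 varied from 1 to 92 counts among EtOH-treated tumors, and its standard error was 0.83 with all tumors and 0.52 without EtOH replicate 3.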

Other observations

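The lipoxygenase arm turns the same arachidonic acid into leukotrienes, and 1 of its genes was lower in calcipotriol-treated tumors. Of 17 genes listed, 11 were tested and 1 was lower past both thresholds, where 0.948% of all genes were. Of the 11, 10 had log2 fold changes below 0 and 1 above (median -0.62), beside 6920 of 14458 below 0 and a median of 0.02 over all genes. Some of them were close to 0, such as Ltc4s at -0.05 (named after its value was seen), and the group as a whole was not tested. This was Alox5, the 5-lipoxygenase of myeloid cells, which fell from 11.4 ± 2.14 CPM to 5.16 ± 0.56 CPM (SD, n = 4), or -1.15 ± 0.23 (SE) in log2 fold change, with adjusted p = 0.028 by edgeR. Its counts were 180, 220, 322 and 301 with EtOH and 110, 123, 108 and 129 with calcipotriol, with no overlap. Lta4h, which makes leukotriene B4, had a log2 fold change of -0.48 (adjusted p = 0.122) and Alox5ap, the 5-lipoxygenase activating protein, of -0.63 (edgeR, adjusted p = 0.129). The macrophage marker sum was lower in the same tumors, at 2099 to 2584 CPM with EtOH and 1074 to 1885 CPM with calcipotriol. Macrophage staining in the paper went the other way, and the part of the sum in these values was not tested.

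The EtOH-treated tumors differed among themselves in some prostanoid and lipoxygenase genes, which were picked after their values were seen. Ptgfr had 257 and 319 counts in EtOH replicates 1 and 2 and 44 and 54 in replicates 3 and 4. Alox15, a 15-lipoxygenase of macrophages, had 10 and 14 counts in EtOH replicates 1 and 2, 644 and 465 in replicates 3 and 4, and 3 to 36 in the calcipotriol-treated tumors. Ptges3 differed between the same tumors, at 104.6 and 114 CPM against 174 and 196 CPM.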
